A study of Mus musculus with 2 samples.

Results

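Mitochondrial DNA (mtDNA) is copied and read by a small set of proteins that are themselves made from nuclear genes. The 10 genes examined here encode a chosen part of that set in mouse, and proteins that act on mitochondrial RNA. Tfam, Tfb2m and Polrmt serve the start of transcription, Tefm its elongation, and Polg, Polg2 and Twnk replication. Tfb1m serves the modification of mitochondrial ribosomal RNA, and Lrpprc and Slirp the stability of mitochondrial messenger RNA. The 10 genes were taken by gene symbol, and all 10 of 10 symbols were found among the 27179 genes listed for both libraries. RNA was measured by sequencing of poly-adenylated RNA in iBAT (interscapular brown adipose tissue, a thermogenic fat) of untreated Bl6N mice at 20 days of age. One group (WT) was wild-type, and the other (Ucp1-KO) carried the Ucp1 knockout, described as Δ/Δ, which removes the mitochondrial protein that lets brown fat turn respiration into heat. Each genotype was represented by 1 library made from 3 pooled animals, so every difference below is one between 2 libraries, and the spread between animals is not known.

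Mitochondrial DNA encodes 13 subunits of the respiratory chain, and brown adipocytes, which are packed with mitochondria, depend on its expression. Tfam coats and bends the DNA and helps to place the polymerase at the promoter, Tfb2m opens the promoter, and Polrmt, a polymerase related to those of bacteriophages, makes the RNA and also the primers for DNA synthesis. Coactivators such as Ppargc1a raise the genes of this machinery by way of nuclear factors such as NRF1 and the ETS factor GABPA, which is the textbook route from a cold or energy signal to more mitochondria.

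The libraries held 52950913 counts (WT) and 53216727 counts (Ucp1-KO). Counts were divided by median-of-ratios size factors of 1.11 and 0.901 and are called normalised counts. The log2 ratio is that of Ucp1-KO over WT after addition of 0.5 to both, and its 95% counting interval covers counting error only. Ucp1, the targeted gene, had 366473 counts in WT and 37853 in the library labelled Ucp1-KO, 12.7% of the WT level, a log2 ratio of -2.98. Where on the gene the remaining reads lie was not analysed here. The animals are labelled male, but Uty, Ddx3y, Eif2s3y and Kdm5d, all Y-linked, had 0 counts in the WT library and 491 to 3446 in the Ucp1-KO library, with Xist at 32380 and 16478 counts, so sex and genotype cannot be told apart. All 13 skeletal muscle markers were lower in the Ucp1-KO library, at 0.520% of the WT and 0.0548% of the Ucp1-KO counts in sum, as were 9 of 10 endothelial markers, at 0.247% and 0.124%, and no marker on either list was at 0. The 13 brown adipocyte markers summed to 1.22% and 1.23% of counts, mostly Fabp4, but differed among themselves, from 2.52 (Elovl3) and 2.28 (Dio2) to -1.08 (Adrb3) in log2 ratio, with a median of 0.25. The part of sex, muscle and endothelium in the values below was not tested. In bulk tissue, fewer cells of a type and less RNA per cell cannot be told apart.

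The machinery as a whole stood nearly level between the libraries after median-of-ratios scaling, while most RNA made from mtDNA was higher in Ucp1-KO. None of the 10 machinery genes differed by 2-fold or more, against 17.0% of the 15212 genes examined, which are those that averaged 10 or more normalised counts, and 7.33% of the 9085 genes in the members' own range of mean normalised count (235 to 5923). Their median log2 ratio was -0.07, beside -0.0016 over all genes examined, and 7 of 10 members lay below 0, as did 50.1% of all genes. Within the set the genes parted: Polrmt and Lrpprc were higher in Ucp1-KO beyond counting error, at 130% and 122% of the WT level, and Twnk, Tefm and Tfb1m were lower, at 71.7%, 78.8% and 67.9%. Both counts depend on scaling. With total counts, under which the median of all genes moved by -0.31, 0 members were higher and 8 of 10 lower. Of all genes, 14.5% were then higher and 53.8% lower. Total counts include the RNA made from mtDNA. With total counts of nuclear genes only, the median of all genes moved by -0.013. Of the members, 2 were then higher and 3 lower, against 30.6% and 31.4% of all genes. Scaling to genes that follow mitochondrial content moved that median by -0.24. Like total counts, it gave 0 and 8 members, against 17.6% and 48.1% of all genes.

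The 5 members beyond counting error were 2 higher and 3 lower, where 31.5% of all genes examined lay above 0 and 30.5% below it by the same rule, and 35.3% and 33.5% of the genes in the members' range. These shares are close to those of the members. The log2 ratio was 0.32 or more away from 0 for 4 of 10 members, against 55.2% of all genes and 45.5% of the genes in that range. The members lay between the percentiles 18.8 (Tfb1m) and 76.4 (Polrmt) of all log2 ratios, so none reached either end of the distribution. The reference genes of the study's quantitative PCR give a scale for such values: Tbp had a log2 ratio of -0.38, Hsp90ab1 of -0.10 and Gtf2b of 0.21. Most members differed by no more than Tbp did.

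**Figure D1:**
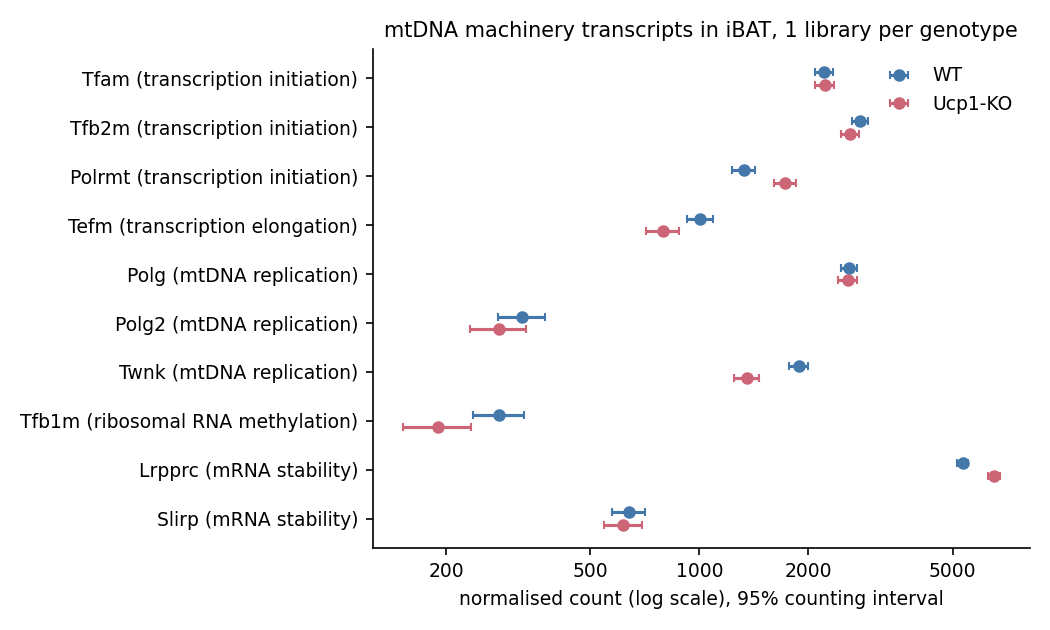
Normalised counts (log axis) of the 10 machinery genes in the WT and the Ucp1-KO library, each point being 1 library and each bar its 95% counting interval. Polrmt and Lrpprc sit to the right in Ucp1-KO, Tefm, Twnk and Tfb1m to the left, and the points of Tfam and Polg nearly coincide.

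Transcription initiation came first. Tfam (Entrez gene 21780, chromosome 10, 71061287 to 71074110 of GRCm39, minus strand) had 2446 counts in WT (95% Poisson interval 2311 to 2587) and 1998 in Ucp1-KO (1876 to 2126). After normalisation these were 2205 and 2217, a log2 ratio of 0.0078 (-0.11 to 0.13). The Ucp1-KO level of Tfam was thus 92.4% to 109% of the WT level by this interval. Tfb2m (15278, chromosome 1, 179355610 to 179374548, minus strand) had 3077 and 2347 counts, or 2773 and 2604 normalised, a log2 ratio of -0.09 (-0.20 to 0.02). Polrmt (216151, chromosome 10, 79571957 to 79582420, minus strand) had 1469 counts in WT (1365 to 1579) and 1551 in Ucp1-KO (1444 to 1664). Its normalised counts of 1324 and 1721 gave the highest log2 ratio of the set, 0.38 (0.23 to 0.53). The polymerase was therefore higher in Ucp1-KO relative to both of its initiation factors, by 0.37 over Tfam (0.18 to 0.56) and by 0.47 over Tfb2m (0.28 to 0.65) on the log2 scale. Such a difference between genes does not depend on the scaling between libraries.

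Elongation went the other way. Tefm (68550, chromosome 11, 80027498 to 80033839, minus strand), the factor that keeps Polrmt on the template and favours long transcripts over replication primers, had 1114 counts in WT (1023 to 1210) and 713 in Ucp1-KO (641 to 791). Normalised, it had 1004 and 791, a log2 ratio of -0.34 (-0.54 to -0.15). Relative to Polrmt, Tefm was lower by 0.72 on the log2 scale (0.48 to 0.97), and stood at 60.6% of its WT ratio. Per kilobase of its canonical transcript Tefm had 1.33 times the normalised count of Polrmt in WT and 0.804 times in Ucp1-KO. The exchange of order holds for that length only: per kilobase of all annotated exons Polrmt was above Tefm in both libraries, with 282 against 194 in WT and 367 against 153 in Ucp1-KO.

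The promoter regions of the members were read from the genome, since genes of this machinery are known as targets of NRF1 and GABPA. The 250 bases before the start of the canonical transcript are shown for Polrmt (chr10:79582421-79582670), Lrpprc (chr17:85098280-85098529) and Tefm (chr11:80033840-80034089), all on the minus strand of GRCm39 and 5′ to 3′. They are the members beyond counting error whose windows lie outside the annotated span of their own gene, which leaves out Twnk and Tfb1m. Capitals mark the core site of ETS factors.
Polrmt: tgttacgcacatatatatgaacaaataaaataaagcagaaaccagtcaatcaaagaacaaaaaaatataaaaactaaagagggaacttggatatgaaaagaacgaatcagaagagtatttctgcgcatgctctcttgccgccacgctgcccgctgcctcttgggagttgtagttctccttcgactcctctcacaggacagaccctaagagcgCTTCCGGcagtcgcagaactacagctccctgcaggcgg
Lrpprc: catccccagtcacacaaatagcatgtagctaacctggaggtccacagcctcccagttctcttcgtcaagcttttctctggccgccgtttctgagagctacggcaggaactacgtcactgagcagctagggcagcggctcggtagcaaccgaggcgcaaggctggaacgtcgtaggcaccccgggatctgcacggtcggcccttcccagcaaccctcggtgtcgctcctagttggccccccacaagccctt
Tefm: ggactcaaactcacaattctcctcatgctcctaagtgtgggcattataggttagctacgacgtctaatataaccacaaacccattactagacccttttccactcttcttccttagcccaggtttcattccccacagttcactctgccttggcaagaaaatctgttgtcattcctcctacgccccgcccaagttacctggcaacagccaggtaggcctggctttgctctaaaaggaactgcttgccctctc

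The ETS core, searched as CCGGAAG on both strands, was present in the windows of 4 of 10 members, Polrmt, Polg2, Twnk and Slirp, and in 9.27% of the 13836 windows of protein-coding genes examined. All 4 matches read CTTCCGG on the strand of the gene and began 28 to 52 bases before its start. They are shown with 10 bases on each side, because their bearers include the highest gene of the set, one of the lowest, and others within counting error.
Polrmt, chr10:79582442-79582468, minus strand: cctaagagcgCTTCCGGcagtcgcaga
Twnk, chr19:44994877-44994903, plus strand: taaccggtgaCTTCCGGttccggggtt
Polg2, chr11:106670376-106670402, minus strand: gggtgacgctCTTCCGGgggcgtggtc
Slirp, chr12:87490510-87490536, plus strand: agcggaaaagCTTCCGGaaagcatcct

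The bearers of this motif had log2 ratios of 0.38, -0.48, -0.21 and -0.05, and so did not share a direction. The palindromic core site of NRF1, searched for exact matches only, was in 0 of 10 windows and in 5.32% of all. Near matches were not counted, and the printed Polrmt window holds a run of letters close to this site. The count therefore does not show that the members lack NRF1-type sites. Of the other motifs, also searched on both strands, the GC box GGGCGG was found in Tefm, Twnk and Tfb1m (47.7% of all windows) and the CCAAT box in Tfb2m and Tfb1m (35.6%). The E-box CACGTG (7.57%), the cyclic AMP response element TGACGTCA (1.96%), the ATF4-type site TGATGNAA (2.15%) and the YY1 core AAGATGGC (1.66%) were in none of the 10. No match overlapped another. A match is a run of letters and not a bound site, and the lack of one says only that these letters are not in this window.

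Replication was represented by a polymerase and a helicase. Polg (18975, chromosome 7, 79095974 to 79116110, minus strand), the catalytic subunit of the mtDNA polymerase, had 2869 counts in WT and 2313 in Ucp1-KO, or 2586 and 2566 normalised. Its log2 ratio of -0.01 (-0.12 to 0.10) placed it at the middle of all genes. Its accessory subunit Polg2 (50776, chromosome 11, 106658823 to 106670384, minus strand), which holds the enzyme on the DNA, was among the weakest members, with 359 counts in WT (308 to 416) and 252 in Ucp1-KO (210 to 300). At 324 and 280 normalised counts its log2 ratio was -0.21, and the interval of -0.55 to 0.13 covers both no difference and a clearly lower level at this depth. The subunits differed from each other by -0.20 (Polg2 minus Polg, -0.56 to 0.16), which was within counting error.

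Twnk (226153, chromosome 19, 44994102 to 45001204, plus strand), the helicase that unwinds mtDNA ahead of Polg, had 2087 counts in WT (1962 to 2218) and 1216 in Ucp1-KO (1121 to 1317). Normalised, the counts were 1881 and 1349, a log2 ratio of -0.48 (-0.63 to -0.33). Its difference was the most precisely measured of the 3 lower genes, and the helicase was lower relative to Polg by 0.47 on the log2 scale (0.28 to 0.65). Twnk, like Tefm and Tfb1m, was lower beyond counting error under every scaling tried.

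Tfb1m (224481, chromosome 17, 3563847 to 3608190, minus strand), a methyltransferase related to Tfb2m that modifies the small mitochondrial ribosomal RNA and is needed for a working mitochondrial ribosome, had the lowest log2 ratio of the set. It had 310 counts in WT (263 to 363) and 171 in Ucp1-KO (137 to 211), or 279 and 190 normalised, a log2 ratio of -0.56 (-0.96 to -0.17). The interval is wide because the gene was weakly covered. Relative to its paralog Tfb2m it was lower by 0.47 on the log2 scale (0.07 to 0.89), a difference that did not hold with the interval widened for all 45 pairs of members.

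Lrpprc and Slirp form a complex that binds mitochondrial messenger RNA, protects it and supports its polyadenylation. Lrpprc (72416, chromosome 17, 85012670 to 85098279, minus strand) was the most abundant member, with 5914 counts in WT (5703 to 6131) and 5873 in Ucp1-KO (5662 to 6089). The nearly equal raw counts became 5331 and 6516 after normalisation, a log2 ratio of 0.29 (0.22 to 0.36), but of -0.017 when scaled by total counts. Slirp (380773, chromosome 12, 87490572 to 87506290, plus strand) had 709 and 555 counts, or 639 and 616 normalised, and a log2 ratio of -0.05 (-0.29 to 0.18). Slirp did not differ beyond counting error on its own, yet was lower relative to Lrpprc by 0.34 on the log2 scale (0.10 to 0.59), at 78.8% of the WT ratio. That difference, too, was lost with the interval widened over the pairs.

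**Figure D2:**
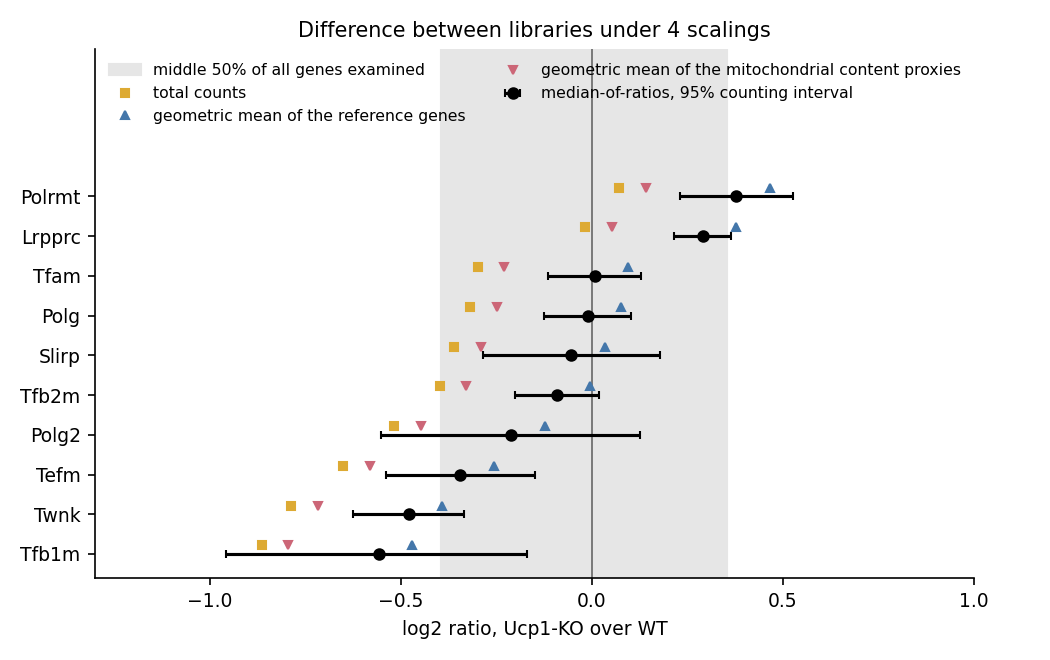
Log2 ratio of Ucp1-KO over WT for each machinery gene under 4 scalings, with black points and bars for median-of-ratios scaling and its 95% counting interval, coloured marks for the other scalings, and a grey band for the middle 50% of all genes examined (-0.39 to 0.35). Scaling shifts all genes together, so that Polrmt falls from 0.38 to 0.07 with total counts, while the order from Tfb1m to Polrmt does not change.

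The members were also compared with each other, which frees the result from the scaling. Of the 45 pairs of members, 27 differed in log2 ratio beyond the 95% counting interval, and 15 did so with intervals widened by the Bonferroni rule over the pairs. Pairs of other genes were not counted, so these numbers do not tell the members from genes in general. Singly, 35.3% of the genes in the members' range of mean normalised count lay above 0 beyond counting error, and 33.5% below it. In the order from Tfb1m up to Polrmt, 8 of the 9 neighbouring pairs did not differ, and the exception was the step from Tfam to Lrpprc (0.28, 0.14 to 0.42). Lrpprc and Polrmt at the top did not differ from each other (0.09, -0.08 to 0.25). The extremes, Tfb1m and Polrmt, were 0.94 apart (0.52 to 1.37). By the 95% interval, Polrmt and Lrpprc thus each differed from all other members but not from each other. With the interval widened over the pairs, neither differed from Polg2 or Slirp. No pair among Tfb1m, Twnk, Tefm and Polg2 differed beyond counting error. These 4 were not a group apart, since the weakly covered Polg2 did not differ from Tfam, Tfb2m, Polg or Slirp either. Nor did Tefm differ from Slirp.

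**Figure D3:**
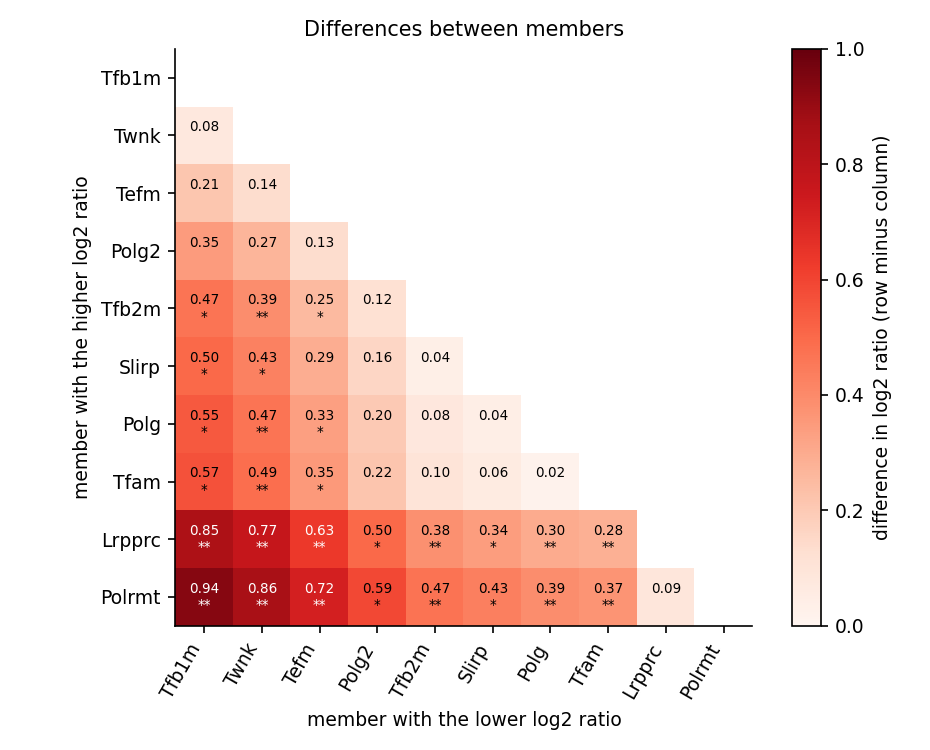
Difference in log2 ratio between each pair of machinery genes (row minus column, genes ordered by log2 ratio). One asterisk marks a 95% counting interval that excludes 0 and double asterisks an interval that does so after widening for 45 pairs; these marks fill the Polrmt and Lrpprc rows, apart from the cell that compares Lrpprc with Polrmt.

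Levels were set side by side only per length, as normalised counts per kilobase of the canonical transcript. Lrpprc led in both libraries, with 1138 in WT and 1390 in Ucp1-KO, followed by Tfb2m with 938 and 881. Tfb1m was lowest with 91.0 and 61.8, below Polg2 (212 and 183) and Slirp (229 and 220). The middle of the order moved: Twnk (530) and Tfam (528) were level in WT, whereas in Ucp1-KO Twnk (380) was below Tfam (531) and Polrmt (457). Polrmt passed from the sixth to the fourth place. Slirp stood at 0.201 of Lrpprc per kilobase in WT and 0.158 in Ucp1-KO, Polg2 at 0.642 and 0.559 of Polg, and Twnk at 1.61 and 1.16 of Polg. The places rest on the length chosen: with all annotated exons in place of the canonical transcript, Tfb2m led in WT and Lrpprc in Ucp1-KO, and Polrmt passed from the fifth to the fourth place. Neighbours in the order whose counting intervals overlapped were Twnk and Tfam, Tfam and Tefm, Polrmt and Polg, and Slirp and Polg2 in WT, and Twnk and Tefm, Tefm and Polg, and Slirp and Polg2 in Ucp1-KO.

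Part of some members' exons lies under a gene on the opposite strand. The libraries kept strand, but whether the counting used it is not stated, so reads of these genes may not be separated. The share was 57.3% of the exon bases of Slirp (mainly Snw1), 34.7% of Tfb1m (mainly Tiam2) and 29.1% of Twnk (Mrpl43), and below 10% for the others. Mrpl43 had a log2 ratio of -0.29 (-0.44 to -0.14), closer to 0 than that of Twnk. Tiam2 was at -0.40 (-0.81 to 0.0052) and Snw1 at -0.16 (-0.29 to -0.03). Alkbh1, which also overlaps Slirp, was at 0.73 (0.47 to 0.99). A small overlap can still involve a strongly covered gene. Cnst, over 9.25% of the exon bases of Tfb2m, had 15119 counts in WT and 7035 in Ucp1-KO (-0.80, -0.86 to -0.75). The directions of Twnk and Tfb1m are thus shared by the genes that overlap them, and the part of this overlap in the result was not tested. Polrmt, Tfam and Lrpprc had no such overlap.

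The other genes of the pathway were examined next, in 5 lists with 63 genes, of which all 63 passed the filter on low counts. In these lists 25 genes (39.7%) were higher and 10 (15.9%) lower beyond counting error, where 31.5% and 30.5% of all genes were. With total counts they were 14 and 37 (22.2% and 58.7%), against 14.5% and 53.8% of all genes. By size, 3 passed 2-fold upward and 2 downward (7.42% and 9.55% of all genes). The 12 partners in mtDNA replication and repair had a median log2 ratio of -0.0088. Fen1, a flap nuclease that also serves nuclear DNA, was below the 2-fold line with 334 counts in WT and 119 in Ucp1-KO (-1.19, -1.64 to -0.75), as did the primase and polymerase Primpol with 298 and 112 (-1.11, -1.58 to -0.66). The nuclease Endog was higher, with 330 and 427 counts (0.67, 0.37 to 0.97).

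Nucleotide supply and termination factors held genes on both sides of 0. The 10 supply genes had a median of -0.10, with 1 higher and 2 lower beyond counting error (31.5% and 30.5% of all genes). The thymidine kinase Tk2 was at 0.43, the inner membrane protein Mpv17 at -0.33 and the pyrimidine carrier Slc25a33 at -0.25. The 5 genes of the MTERF family, which bind mtDNA or the mitochondrial ribosome, had a median of -0.25. Mterf2 was lower (-0.58, -0.78 to -0.38), Mterf3 was higher (0.33, 0.19 to 0.46), and Mterf1a was at -0.46 with an interval of -0.94 to 0.02.

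Genes that process and degrade mitochondrial RNA had a median of 0.14, or of -0.17 with total counts, and 12 of 22 were higher beyond counting error against 1 lower (31.5% and 30.5% of all genes). With total counts 7 were higher and 13 lower (31.8% and 59.1%), against 14.5% and 53.8% of all genes. The largest log2 ratios were those of Pde12, which trims poly(A) tails, with 992 counts in WT and 1454 in Ucp1-KO (0.85, 0.68 to 1.02), Trmt10c, a part of mitochondrial RNase P (0.67, 0.54 to 0.79), and the oligoribonuclease Rexo2 (0.55, 0.45 to 0.65). Each of these was above Polrmt, the highest member, in log2 ratio.

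Upstream of the machinery, Ppargc1a, Myc and Pprc1 had the largest log2 ratios. The 14 regulators had a median of 0.16 (-0.15 with total counts), and 3 of them were past 2-fold upward (7.42% of all genes). Ppargc1a, the coactivator induced by cold, had 4105 counts in WT and 12332 in Ucp1-KO, 370% of the WT level (log2 ratio 1.89, 1.81 to 1.96). Myc had 244 and 703 counts (1.82, 1.53 to 2.14), and Pprc1, a relative of Ppargc1a, had 759 and 1542 (1.32, 1.14 to 1.50). Ppargc1b, also a coactivator and chosen after its value was seen, had 2748 and 3499 counts (0.65, 0.55 to 0.75). Of the DNA-binding factors other than Myc, Nrf1, the GABP genes and Yy1, chosen after their values were seen, lay closer to 0. Nrf1 was at 0.14 (-0.07 to 0.35), Gabpa at -0.06 (-0.15 to 0.04) and its partner Gabpb1 at -0.09 (-0.28 to 0.10), all within counting error. The other GABP partner Gabpb2 was lower, at -0.14 (-0.25 to -0.02), and Yy1 was higher, at 0.18 (0.06 to 0.29). Of the nuclear receptors on the list, Esrra was at 0.10 (0.03 to 0.17) and Esrrg at 1.00 (0.81 to 1.19). Ppargc1a, Pprc1 and Ppargc1b thus stood at 370%, 250% and 157% of their WT level, and Tfam, a gene of their known programme, at 101%.

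Most RNA made by the machinery was higher in Ucp1-KO. All 13 mtDNA-encoded subunits were higher beyond counting error, against 31.5% of all genes, with a median log2 ratio of 0.96. With total counts 11 were higher and 1 lower, against 14.5% and 53.8% of all genes, with a median of 0.65. The 13 subunits made up 21.4% of the WT and 30.7% of the Ucp1-KO counts. The largest log2 ratios were 3.46 for ND3, 2.27 for ATP6 and 1.30 for ND6. The ribosomal RNAs of mtDNA were at 3.35 (mt-Rnr1) and 2.60 (mt-Rnr2), and went from 1.01% to 6.01% of all counts, in libraries that select for poly(A) tails. Whether this selection differed between the libraries was not tested. No member had a log2 ratio as high as the median of the subunits, and 2 of the 13 subunits, ND1 (0.25) and COX3 (0.31), chosen after their values were seen, lay below Polrmt.

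Nuclear genes that follow the amount of mitochondria give another yardstick. Of 15 such genes for import, the matrix and the outer membrane, 14 were above 0, with a median of 0.25 and a range of -0.20 to 0.52. Scaled to their geometric mean, Polrmt (0.14) and Lrpprc (0.05) were no longer beyond counting error, and the other 8 members were lower beyond it. This scaling lowered genes in general: the median of all genes moved by -0.24, with 17.6% higher and 48.1% lower beyond counting error. The members' median minus that of all genes was -0.07, as under median-of-ratios scaling.

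**Figure D4:**
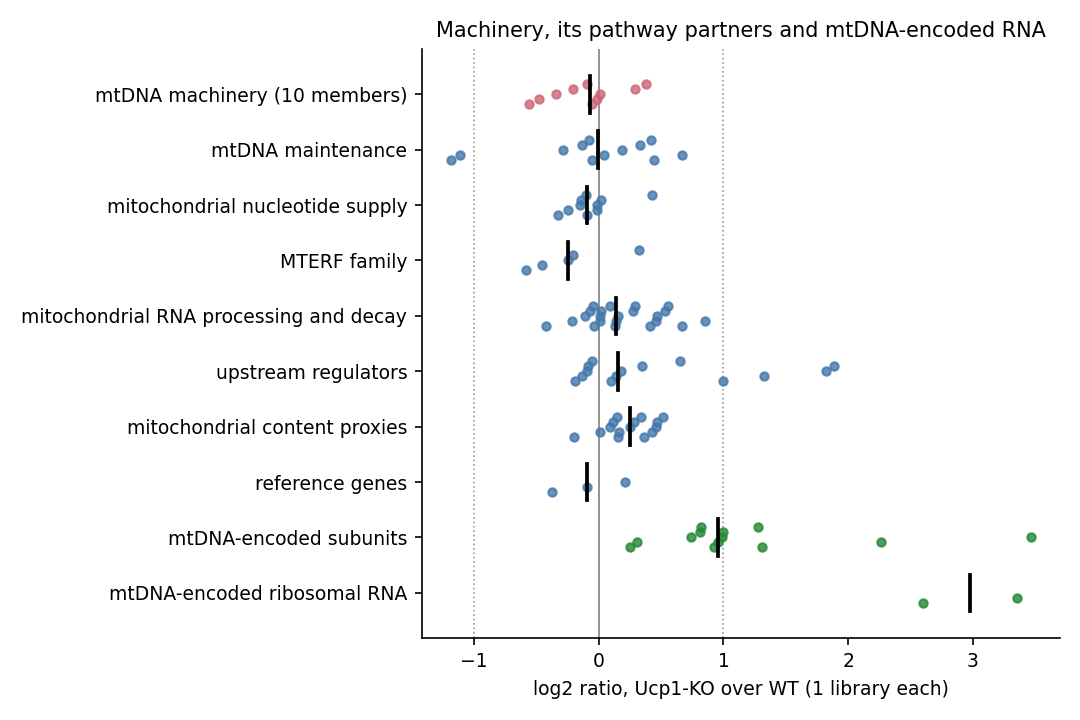
Log2 ratio of Ucp1-KO over WT for each gene of the machinery (red), of its pathway partners and comparison lists (blue) and of the mtDNA-encoded RNAs (green), with a black bar at each list's median and dotted lines at 2-fold. The machinery spans -0.56 to 0.38 around a median of -0.07, while the mtDNA-encoded subunits lie between 0.25 and 3.46.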

How the data were processed

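The authors deposited raw counts per gene from featureCounts, as whole numbers and without normalisation. Per the labels, reads were trimmed with Trim Galore and aligned with HISAT2 to mm39 (GRCm39), from directional libraries of poly(A)-enriched RNA. Tool versions, the annotation, and the settings for strand and multiply matching reads are not given in the sources used here.

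Size factors were computed with DESeq2 1.42.0 (R 4.3.3) and TMM factors with edgeR 4.0.16. With 1 library per genotype no test was run. Low counts were mostly even (70.7% and 73.4% of counts from 1 to 10), as when both mates of a pair are counted, so exact 95% Poisson and conditional binomial intervals (SciPy 1.17.1) were computed on counts divided by 2. Intervals between members are exact conditional odds ratio intervals. All cover counting error only, since reads are not independent molecules. The interval code was tested on simulated data. Genes averaging 10 or more normalised counts were examined. No other filter was set.

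The members and lists were chosen with earlier results of these data known. Named genes were the members, the reference genes, Ucp1, the 3 largest log2 ratios of each list and every pathway gene past 2-fold. Positions, lengths and promoters are from GENCODE mouse release M39 on GRCm39, joined by symbol. Alternatives were other scalings, a pseudocount of 5, other filters and size rules, and intervals on undivided counts.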

Additional observations from a re-analysis of the deposited data

How the results depend on the processing

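The order of the members and the differences between them do not depend on scaling, but their distance from 0 does. TMM factors, total counts of nuclear genes only, a pseudocount of 5 and scaling to the reference genes left 2 members higher and 3 lower beyond counting error. With total counts, which moved the median of all genes by -0.31, 0 were higher and 8 lower, with a median of -0.38, and Lrpprc reversed to -0.017. Scaling to the mitochondrial content genes, which moved the median of all genes by -0.24, also gave 0 higher and 8 lower, with a median of -0.31. Total counts moved the list medians to -0.32 (mtDNA maintenance), -0.40 (nucleotide supply), -0.55 (MTERF family) and 0.65 (mtDNA-encoded subunits), and reversed RNA processing to -0.17 and the upstream regulators to -0.15. A smaller size rule, a log2 ratio of 0.32, called 4 members in place of 0 at 2-fold. Over all genes, 1128 were at least 2-fold higher and 1453 lower. These became 2187 and 2844 with no filter, and 455 and 612 at a mean of at least 100. The Bonferroni level left 15 of 27 pairs. Of 60 other values for single members, 43 stayed within their intervals and 17 did not. The sign changed in 7, of which Lrpprc alone had been beyond counting error before; Tfam went to -0.30 with total counts and -0.23 with the content genes, lower beyond counting error in both. Without the 3 members overlapped by at least 25%, an alternative chosen after seeing the data, the median was -0.01. Intervals on undivided counts added Tfb2m to the lower members. No paired analysis was possible because there is a single library for either genotype, nor could a library be left out. Depth limits Polg2, Tfb1m and Slirp most.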

Other observations

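Among the genes for mitochondrial RNA processing, several that the naming rule left out were higher in Ucp1-KO as well, and were chosen after their values were seen. Grsf1, which marks the RNA granules in which mitochondrial transcripts are handled, had 10731 counts in WT against 12070 in Ucp1-KO, with a log2 ratio of 0.47 (0.42 to 0.52). Hsd17b10, which works with Trmt10c in RNase P, was at 0.41 (0.35 to 0.47). Of the FASTK family of mitochondrial RNA-binding proteins, Fastkd5 was at 0.53 (0.36 to 0.69) and Tbrg4 at 0.46 (0.37 to 0.55), while Fastkd1 was lower, at -0.43 (-0.54 to -0.31). The polymerase that adds the mitochondrial poly(A) tail, Mtpap, was at 0.14 (0.02 to 0.26). With total counts each of these values lies lower by the shift of all genes, -0.31.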
